A study of Mus musculus with 2 samples.

Results

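Mir101b and Mir101a are 2 mouse genes of the microRNA miR-101. They were taken by symbol from the GENCODE M21 annotation, and both of the 2 members were found among the 1973 microRNA genes counted. The samples were whole livers of B6NCrl mouse embryos at embryonic day 14.5, sequenced as 2 small RNA libraries of a single untreated group, called replicate 1 and replicate 2 after their biological replicate numbers. Each is labelled as a single liver, yet the sex is given as pooled and both carry the same donor ID, so how far the libraries are independent animals is unclear. The labels list no treatment, transgene or mutation for either liver. Sense-strand counts of all microRNA genes summed to 3132763 in replicate 2 and 2353946 in replicate 1, and levels are given in CPM of these totals. The hepatocyte microRNA Mir122 was the most abundant gene with 103860 ± 9208 CPM (SD, n = 2), and the red cell microRNA Mir451a was at rank 6. Mir1a-1 and Mir133a-1 of muscle and Mir9-2 of neurons had no count, and the 3 Mir124a genes of neurons had 1 count between them. Their symbols are numbered as loci of families with several, and reads placed at more than 1 site are left out of the counts. Such low counts therefore do not show that muscle or neural RNA was absent. Other markers of those tissues were present and unequal between the libraries, namely neural Mir137 (22.3 CPM in replicate 2, 242 CPM in replicate 1) and muscle Mir206 (14.05 CPM in replicate 2, 31.0 CPM in replicate 1).

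A microRNA gene is transcribed into a hairpin whose arms are cut out by the nucleases Drosha and Dicer, and the 5p or 3p product then guides Argonaute to messenger RNAs that pair with its seed. The seed is the run of bases just behind the 5′ end, here bases 2 to 8. The main product of miR-101 comes from the 3p arm. It is known in human cancer cells as a repressor of EZH2, the histone methyltransferase of Polycomb repressive complex 2, and as a microRNA lost in liver cancer.

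The hairpins are shown because they carry the contrast between a nearly shared 3p arm and a diverged remainder. They are RefSeq sequences of build GRCm38.p6, with both mature products in capitals. Mir101b (ENSMUSG00000065556.1) lies at chr19:29135279-29135375 on the plus strand, is 97 bases long and has 47.4% G and C. Mir101a (ENSMUSG00000065451.1) lies at chr4:101346945-101347027 on the minus strand, is 83 bases long and has 49.4% G and C.

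Mir101b: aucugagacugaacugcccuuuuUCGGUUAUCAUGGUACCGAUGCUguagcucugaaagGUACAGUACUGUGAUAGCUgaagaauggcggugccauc

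Mir101a: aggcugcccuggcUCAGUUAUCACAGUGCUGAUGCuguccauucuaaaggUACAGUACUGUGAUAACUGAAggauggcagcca

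In a global alignment the hairpins were identical at 64 of 97 columns (66.0%). The 3p arms were much closer than that. Along the 21 bases of miR-101a-3p, the Mir101b hairpin differed at a single base, A16G, counted from 1 at the 5′ end of miR-101a-3p (95.2% identical). Along the 22 bases of miR-101a-5p it differed at 5 bases, A3G, C11U, A12G, G15A and U17C (77.3% identical). The difference in the 3p arm lies behind the seed, and the first 15 bases were the same.

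The mature products are shown because the annotated 5′ ends are set 1 base apart, which moves the seed. Capitals mark bases 2 to 8. Mir101c, on chromosome 9, is a further locus annotated with a miR-101 product, and it has an ID of its own, under which it was not analysed here. Mir144, on chromosome 11, is added because bases 2 to 7 of its 3p product are those of miR-101a-3p.

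miR-101b-3p: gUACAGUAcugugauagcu

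miR-101a-3p: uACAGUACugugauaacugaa

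miR-101c: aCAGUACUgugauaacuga

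miR-144-3p: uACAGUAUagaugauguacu

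All 3 miR-101 products hold the 14 bases acaguacugugaua, which start at base 3 of miR-101b-3p, at base 2 of miR-101a-3p and at base 1 of miR-101c. As annotated, they therefore have different 7-base seeds, as the capitals show. The counts are per gene and hold no information on which 5′ end the reads had.

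Mir101b was abundant in both livers and Mir101a was scarce. Mir101b had 21361 counts in replicate 2 and 16745 in replicate 1, which is 6819 CPM (95% Clopper-Pearson interval 6728 to 6910) and 7114 CPM (7007 to 7222). Mir101a had 255 counts in replicate 2 and 252 in replicate 1, which is 81.4 CPM (71.7 to 92.0) and 107.1 CPM (94.2 to 121). The intervals of the genes did not overlap in any library. They cover counting error only, since PCR copies are not independent molecules. The means were 6966 ± 209 CPM for Mir101b and 94.2 ± 18.1 CPM for Mir101a (SD, n = 2), so the SD was 2.99% of the mean for the abundant gene and 19.3% for the scarce gene. No read was counted on the opposite strand of either gene in either library. The pair together took 0.690% of the counts in replicate 2 and 0.722% in replicate 1.

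**Figure D1:**
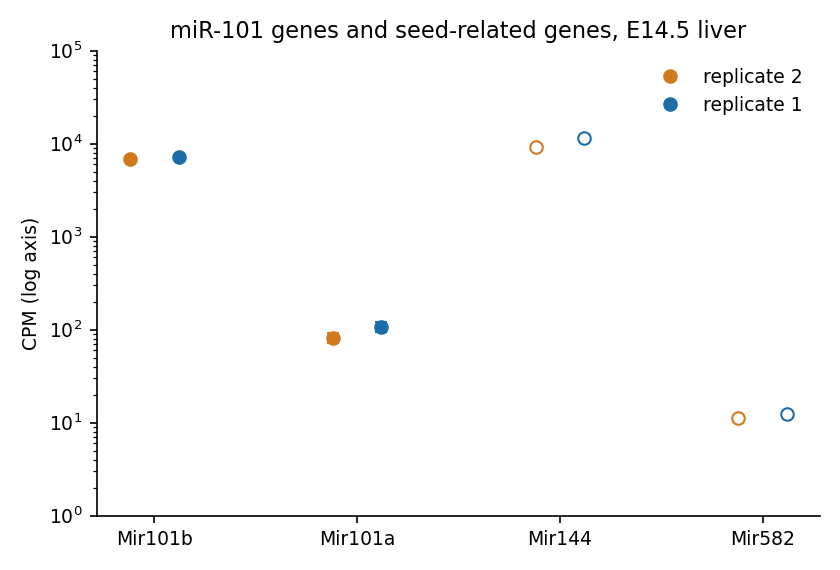
CPM on a log axis of the miR-101 genes and of the genes whose products share seed bases with them, with 1 point per library, replicate 2 left of replicate 1. Bars on the filled points are 95% Clopper-Pearson intervals, mostly smaller than the points, and open points are drawn without intervals. Mir101b lies near Mir144, and Mir101a lies between Mir144 and Mir582 in both libraries.

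Mir101b counts exceeded Mir101a counts 83.8-fold in replicate 2 (95% exact binomial interval 74.0 to 95.2) and 66.4-fold in replicate 1 (58.7 to 75.6). The mean ratio was 75.1 ± 12.2 (SD, n = 2), or 64.3 ± 10.5 per base of annotated hairpin. The share of the pair's counts that came from Mir101a was 1.18% (replicate 2; Clopper-Pearson 95% bounds 1.04 and 1.33) and 1.48% (replicate 1; bounds 1.31 and 1.68). The ratio differed between the libraries by a factor of 1.26 (two-sided Fisher's exact test, p = 0.0102), a difference small beside the ratio itself. With 1 library per liver, that test compares these libraries and covers counting error only.

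Per base of hairpin, Mir101b had a mean of 71.8 CPM and stood at rank 39 of the 332 genes that reached 10 counts in both libraries, the genes compared below. Mir101a had 1.14 CPM per base and rank 198, under the median of 2.05 CPM per base. By CPM alone, the ranks were 37 and 194. The genes next to Mir101b in CPM were Mir16-1 (7236 ± 144 CPM) and Mir744 (7133 ± 439 CPM) above it, and Mir15b (6574 ± 107 CPM) and Mir99b (6234 ± 0.305 CPM) below it (SD, n = 2). The Mir744 value lay within the spread of Mir101b. Those next to Mir101a were Mir34c (99.1 ± 11.0 CPM), Mir30c-2 (95.3 ± 11.6 CPM), Mir19a (93.9 ± 3.06 CPM) and Mir155 (90.9 ± 18.6 CPM), all of them within the SD of Mir101a.

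How much of either level is missing from the tables cannot be read from them, because the gene counts leave out multimapping reads, those placed at more than 1 site. Multimapping reads were 33.1% of all reads in replicate 2 and 34.0% in replicate 1, or 2668030 and 2175174 reads, far more than all reads at the pair. The longest stretch that Mir101b and Mir101a have in common is 20 bases, aaaggtacagtactgtgata on chromosome 19, which runs 16 bases into miR-101b-3p or 15 into miR-101a-3p and stops before the differing base. From their 5′ ends, miR-101b-3p is found in a single annotated hairpin once 17 bases are read, and miR-101a-3p once 16 bases are read. With Mir101c the pattern is uneven. Mir101a has 19 bases in common with it, acagtactgtgataactga, which are bases 2 to 20 of the 21-base miR-101a-3p and the whole of the annotated miR-101c, while Mir101b has only 14. A full-length miR-101a-3p read thus differs from Mir101c at its outer bases alone. How the alignment treated such reads is not stated in the labels or notes, and the part of shared sequence in the low count of Mir101a was not tested. Levels of both genes are uncertain for this reason. Of the 332 tested genes, 85 (25.6%) have 20 bases in common with another annotated hairpin, and both members are among them. Those 85 had a median of 95.3 CPM, against 242 CPM for the other genes tested. Their levels ranged widely, with 8 of the 85 above Mir101b and 41 below Mir101a. Whether shared bases lower a count was not tested.

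**Figure D2:**
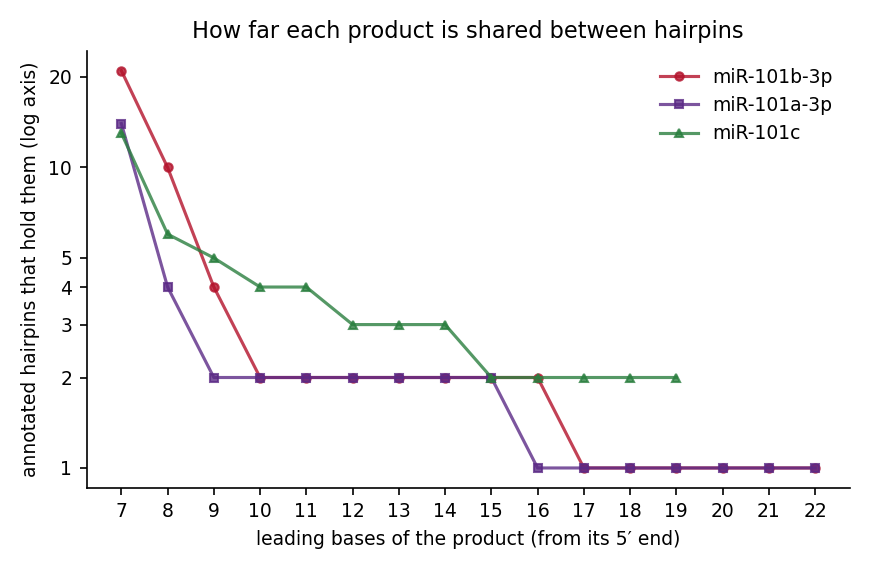
Number of annotated microRNA hairpins, of 2202 and on a log axis, that hold the leading bases of each product, by how many bases are read from the 5′ end. miR-101b-3p and miR-101a-3p are continued along their hairpins to 22 bases. The miR-101b-3p line reaches a single hairpin at 17 bases and the miR-101a-3p line at 16, while miR-101c is still in 2 hairpins at its full 19 bases.

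The genes also sit in different kinds of host. Mir101b lies in intron 8 of Rcl1, on the same strand. Rcl1 is a coding gene whose product acts in the maturation of ribosomal RNA. The hairpin starts 775 bases behind exon 8 and 33904 bases from the start of the host, and the intron is 8638 bases long in the transcript Rcl1-201. Mir101a lies within exon 2, the last, of the long noncoding transcript E130102H24Rik-201, 9708 bases from its start. Neither has another microRNA gene of the tables within 10 kb, and the nearest are 1126066 bases from Mir101b and 1689115 bases from Mir101a, so neither belongs to a close cluster.

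Among the microRNA genes in an intron of a coding host, 115 of 654 reached that minimum (17.6%), and 217 of the 1319 other genes (16.5%). The median levels were 144 CPM for the hosted genes tested and 174 CPM for the others tested. Mir101b was far above that median, at rank 9 of the 115 by CPM and rank 10 per base of hairpin. The levels of the host transcripts were not measured in these libraries.

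Both genes were lower in replicate 2 than in replicate 1, Mir101b by a small margin and Mir101a by more. Mir101b was 0.959 times its level in replicate 1 (95% exact interval 0.939 to 0.978), a log2 ratio of -0.06. Mir101a was 0.760 times (0.636 to 0.909), a log2 ratio of -0.40. Both differences passed a two-sided exact binomial test with Benjamini-Hochberg adjustment over the 332 genes, with an adjusted p of 0.000162 for Mir101b and 0.00680 for Mir101a. The test covers counting error only, since each liver has only 1 library. Such calls were common. By this test 139 genes differed (41.9% of those tested), of which 61 were lower in replicate 2 (18.4% of those tested) and 78 higher. By TMM scaling the split was 69 lower and 59 higher. The median log2 ratio of all tested genes was 0.03, and the median size of the log2 ratio was 0.17. Mir101b lay below that size, with only 70 genes closer to no change, and Mir101a above it, with 264 genes closer to no change.

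Markers of several cell types also differed between these libraries. The summed hepatocyte markers were at 119120 CPM in replicate 2 and 105652 CPM in replicate 1. Of these 4 genes, 3 were called higher in replicate 2, Mir192 among them only by library totals or with the highest gene left out of the totals. The erythroid genes Mir451a and Mir144, made from the same transcript, summed to 39515 CPM in replicate 2, against 49613 CPM in replicate 1. A further listed marker, Mir486a, was not found by that symbol and is not in this sum. The gene named Mir486, in an intron of Ank1, was called higher in replicate 2 (ratio 1.27), while Mir451a and Mir144 were called lower. The endothelial Mir126a (ratio 0.937) and the white cell Mir223 (ratio 0.942) were called lower as well, and Mir150 of white cells was not called (ratio 0.998). Of 5 neural and 3 muscle markers, Mir137 (ratio 0.0923) and Mir206 (ratio 0.453) were the only genes that could be tested, and both were called lower in replicate 2. The part of these differences in those of Mir101b and Mir101a was not tested, and fewer cells of a type cannot be told apart from less RNA per cell in whole tissue.

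**Figure D3:**
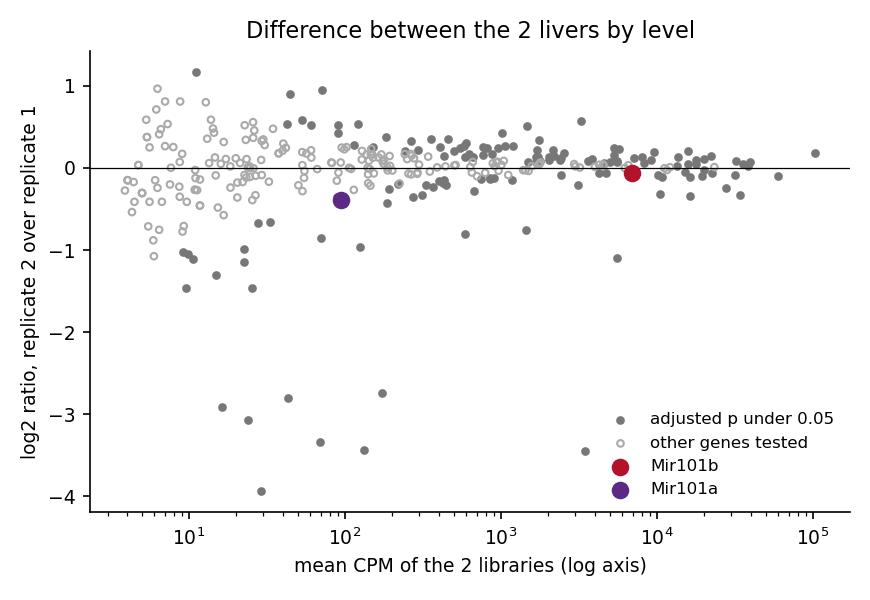
Log2 ratio of replicate 2 over replicate 1 against mean CPM (log axis) for the 332 genes tested, each point a gene, filled where the adjusted p was under 0.05. Mir101b lies close to 0 at -0.06 and Mir101a at -0.40, both within the range of genes of like level.

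Among genes within a factor of 2 of Mir101b in mean CPM, 23 of 32 differed between the libraries, and their median ratio was 1.03. The nearest to Mir101b in log2 ratio were Mir140 (ratio 0.961), Mir1193 (0.955) and Mir16-1 (0.972). Of the 58 genes within a factor of 2 of Mir101a, 16 differed, with a median ratio of 1.05. The nearest in log2 ratio were Mir125b-2 (0.744), Mir132 (0.783) and Mir26a-2 (0.822). This likeness rests on 2 libraries and a single ratio per gene.

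The microRNAs with related seeds did not share a common level. Mir144, a red cell microRNA made from the same transcript as Mir451a, had 9272 CPM in replicate 2 and a higher 11594 CPM in replicate 1, or 158 CPM per base of hairpin on average, above Mir101b on this scale. It was lower in replicate 2 at a ratio of 0.800 (95% exact interval 0.787 to 0.813) and passed the exact binomial test. Mir582, whose 5p product has bases 2 to 7 of miR-101b-3p as annotated, was low, at 11.2 CPM in replicate 2 and at 12.3 CPM in replicate 1. Its ratio of 0.907 had an interval of 0.539 to 1.54 and an adjusted p of 0.823 by the exact binomial test.

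For the known target Ezh2, the bases after the stop codon of the transcript Ezh2-214 were searched on the transcript strand for the 7 bases that pair with each seed. These are GTACTGT for miR-101a-3p, TACTGTA for miR-101b-3p, AGTACTG for miR-101c and ATACTGT for miR-144-3p. The miR-101 motifs overlap each other. The 402-base region held GTACTGT 2 times, AGTACTG 2 times, TACTGTA once and ATACTGT 0 times. Over all 21020 genes with such a region, of any length, the share that held the motif was 9.38% for GTACTGT, 12.2% for TACTGTA, 8.72% for AGTACTG and 11.9% for ATACTGT. The windows are shown, with GTACTGT in capitals, because they differ in the base behind the match, which decides whether the seed annotated for miR-101b-3p pairs as well. They are bases 44 to 73 and 99 to 128 of the region, on chromosome 6.

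Ezh2 first window: cttcaggaaccttgaGTACTGTgggcaatt

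Ezh2 second window: ttctgaatttgcaaaGTACTGTaacagtaa

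The second window, in which A follows the capitals, matches the annotated seeds of both members, and the first matches that of miR-101a-3p but not that of miR-101b-3p. These matches are letters in a reference transcript, and Ezh2 itself was not measured.

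Of 11 genes of other microRNAs known as repressors of Ezh2 in some cell types, 8 reached 10 counts in each library. Mir26b was the highest with 38966 CPM in replicate 2 beside 38267 CPM in replicate 1, followed by Mir98 with 3216 and 3204 CPM and Mir214 with 1176 and 873 CPM in the same order. Mir101b fell between Mir26b and Mir98 in CPM, and Mir101a below Mir214. By the exact binomial test 4 of the 8 differed, 2 higher and 2 lower in replicate 2, near the 41.9% called among all tested genes. The median log2 ratio was -0.26 in the list and 0.03 over all tested genes. The lower genes were Mir138-1 (ratio 0.363, adjusted p = 1.73e-07 by the exact binomial test) and Mir138-2 (ratio 0.633). The higher were Mir214 (ratio 1.35, adjusted p = 8.72e-27 by the exact binomial test) and Mir26b (ratio 1.02, against 0.997 with TMM scaling, where it did not pass). The 3 Mir124a genes and their 1 count in replicate 2 stayed under the limit that a count of 0 allows, which is 3 counts (0.958 CPM for replicate 2, 1.27 CPM for replicate 1). Levels of listed genes with several loci, those of Mir26a, Mir138 and Mir124a, may be too low, since reads placed at more than 1 site are left out.

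To place the imbalance of the pair, other microRNA families with exactly 2 tested genes under the same number were compared, a choice made after the values were seen. There were 21 other such families, ordered by the mean fold of the libraries of the gene with the higher mean over its partner. Their median fold was 4.79 in replicate 2 and 3.92 in replicate 1, and 7 of the 21 exceeded 10-fold in each library. In replicate 2 the pair stood at rank 4 with 83.8, behind Mir18 over Mir18b (356), Mir20a over Mir20b (135) and Mir194-2 over Mir194-1 (125). In replicate 1 it stood at rank 5 with 66.4, since Mir106b over Mir106a reached 80.0 there against 62.5 in replicate 2. Several families have identical or nearly identical products, whose reads may also have mapped to more than 1 place, so these folds carry the same uncertainty.

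**Figure D4:**
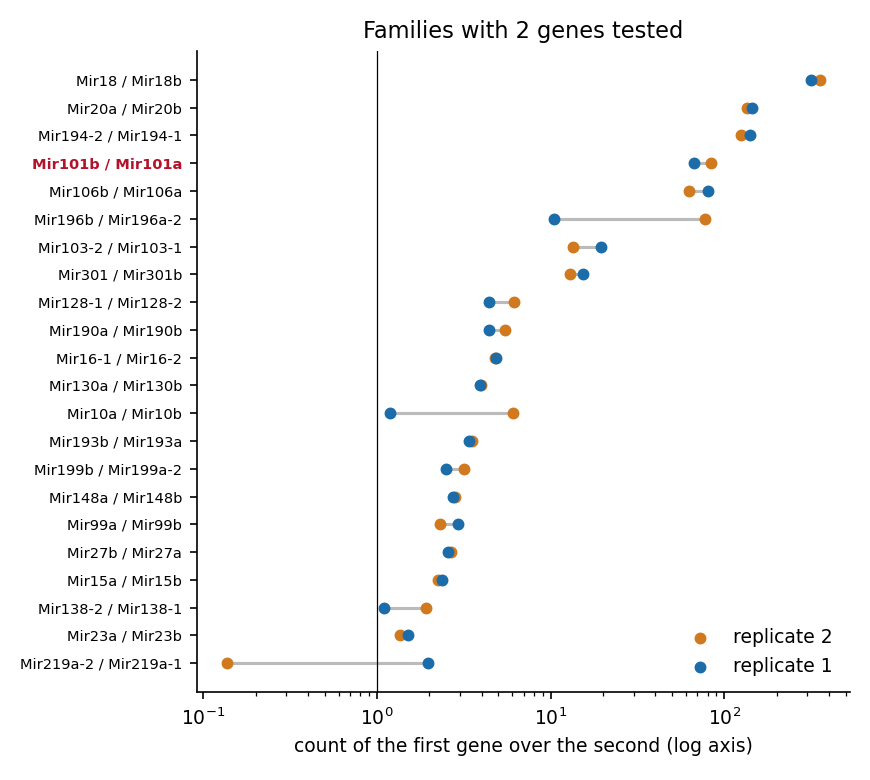
Fold between the genes of each family with 2 tested members, the count of the first gene over that of the second on a log axis, with 1 point per library and families ordered by the mean of their points. The pair Mir101b and Mir101a lies at 83.8 in replicate 2, with 3 families above it, and at 66.4 in replicate 1, with 4 above it. The bottom family, Mir219a-2 over Mir219a-1, lies on opposite sides of 1 in the libraries.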

How the data were processed

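The authors deposited raw counts of reads per microRNA gene for each library, with no normalization. Per the notes deposited with the files, the assembly is mm10 and the annotation M4, and each table comes from its own alignment. Which aligner and counter were used is not given in the sources used here. Counts on the gene's strand were used. Rows that name no gene (unmapped 17.7% and 18.6%, mapped to more than 1 place 33.1% and 34.0%, in no gene 10.4% and 10.6% of reads in replicates 2 and 1) stayed out of library sizes.

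Of 1973 IDs, 1894 matched GENCODE M21 of GRCm38, the assembly of mm10. Mature and hairpin sequences are from RefSeq (GRCm38.p6) and matched both members. Shared stretches were exact matches, on either strand, among the 2202 GENCODE M21 hairpins. The genome itself was not searched. The bases after the stop codon were taken from the coding transcript of each gene in which they are longest. Hairpins were aligned with biopython 1.88 (match 2, mismatch -1, gap opening -4, extension -1).

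With 1 group, the replicates were compared gene by gene with scipy 1.17.1 by an exact binomial test (two-sided, expected share from the library totals), over genes that reached 10 counts in both libraries, adjusted by Benjamini-Hochberg at 0.05. The test was tried on simulated counts that varied by counting error only, as the test assumes. That trial cannot show how the test behaves when libraries vary further. edgeR 4.0.16 and DESeq2 1.42.0 supplied alternative library sizes only. Genes were named by a rule: the members, genes whose products share seed bases with theirs, neighbours in CPM, the nearest in replicate ratio, a list of repressors of Ezh2 and tissue markers. The members and lists were chosen with earlier results of these data known. Searches for shared bases and for seed matches in Ezh2, and the comparison of families, were added after the data were seen.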

Additional observations from a re-analysis of the deposited data

How the results depend on the processing

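The ratio of Mir101b over Mir101a ranged under 6 alternatives from 64.3 per base of hairpin to 83.8 without replicate 1, with 66.4 without replicate 2. Some of these could hardly move it. Neither gene had a count on the opposite strand, so counts regardless of strand gave the same ratio. Leaving out a replicate only returned the ratio of the other library. Both genes stayed lower in replicate 2 under 9 alternatives each, with ratios of 0.938 to 0.973 for Mir101b and 0.744 to 0.771 for Mir101a. Another minimum count, or none, could not change a gene's own ratio and moved only its adjusted p. Adding 0.5 or 10 to each count could hardly move the ratio, gave a ratio only and was not tested anew. Both genes passed the exact binomial test under the 7 alternatives that were tested. The adjusted p of that test was 5.43e-09 to 0.0183 for Mir101b and 0.00352 to 0.0132 for Mir101a. The count of differing genes was 128 to 147 under 7 alternatives, against 139. The level of Mir101b depended on the denominator by construction. It was 6275 CPM with counts regardless of strand, 7773 CPM with the highest gene left out of the totals and 2633 CPM over all reads, and that of Mir101a was 35.5 CPM over all reads. Without replicate 1 or 2, the levels were 6819 and 7114 CPM for Mir101b and 81.4 and 107.1 CPM for Mir101a. No test of the difference between the livers can be had with a replicate left out. No paired analysis was possible because there is only 1 group. With about 250 counts per library, Mir101a has level intervals over 10% wide on either side. Its ratio between the libraries is less certain still, at 0.760 with an interval of 0.636 to 0.909. Small differences in it were therefore not detectable at this depth.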
